A study of Mus musculus with 6 samples.

Results

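Z-disc, M-band and sarcomere chaperone genes were examined in heart ventricles of mouse embryos at E12.5. The set holds 38 genes of sarcomere structure, folding and turnover, chosen by name and without the myosin, actin, tropomyosin and troponin isoforms, out of 54532 gene IDs in the table. Every symbol was found, and 36 of the 38 genes had a mean of at least 0.5 FPKM (fragments scaled to exon length and library total, so that levels of genes of different length can be set side by side) and were tested. RNA sequencing was done on 3 control libraries (genotype label CTL) and 3 libraries of a conditional knockout of LSD1 (genotype label LSD1-KO), the histone demethylase encoded by Kdm1a. The labels give no Cre driver, strain or litter and no genotype detail for the controls. Nor do they say whether replicates were different embryos, so the p-values measure only the spread among these libraries, which may be technical. Knockout replicate 3 differed from the other knockouts in the sex-linked Xist and Ddx3y, so the 3 knockout libraries were not all repeats of a single embryo. For the other libraries this is not known.

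The sarcomere is the repeating contractile unit of heart muscle. Its thin filaments are anchored at the Z-disc by α-actinin and capped at their inner ends, its thick filaments are cross-linked at the M-band by myomesins, and titin spans from the one to the other. Adaptor proteins with LIM and PDZ domains, muscle ankyrin repeat proteins and filamin gather at the Z-disc and take part in sensing strain, while small heat shock proteins, the myosin chaperones and the MuRF ubiquitin ligases fold, protect and remove the parts. In the ventricle at midgestation these genes are active in cardiomyocytes that contract while the wall is still being built.

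Kdm1a stood at 27.5 ± 4.08 FPKM in control and 11.1 ± 0.555 FPKM in knockout libraries (SD, n = 3 each), and fell by 1.22 on the log2 scale (SE 0.11, limma adjusted p = 0.00274). Depth, read back from the FPKM steps as whole reads, ran from 17898947 to 20076021 per library. The 4 ventricular markers summed to 4737 to 5478 FPKM per library, and none of them passed the test (median log2 change -0.14, all 4 below 0). The 8 atrial markers were also present, with sums of 2578 to 3333 FPKM and mixed directions (median log2 change 0.11, 5 above 0 and 3 below, lowest -0.42). Only 1 of them passed the test, Kcnj3, which rose (log2 change 0.61, limma adjusted p = 0.0302). Exons of Gm26794 cover 31.1% of its exons. The part of the ventricular and atrial markers in the levels of the sarcomere genes was not tested. The 11 cardiomyocyte markers were all detected, and none of them passed the test (median log2 change -0.09, 3 above 0 and 8 below). The 7 skeletal muscle precursor markers together summed to 0.0985 to 2.06 FPKM in control and 0.233 to 1.41 FPKM in knockout libraries, and 1 of them reached the filter. Among them Myod1 was at 0 in 4 libraries and at most 0.251 FPKM elsewhere. Knockout replicate 3 had 12.1 FPKM of Xist and 0 of the Y-linked Ddx3y, and the other 5 libraries had 13.0 to 14.3 FPKM of Ddx3y and at most 1.11 of Xist. In bulk ventricle, fewer cardiomyocytes and less RNA per cardiomyocyte cannot be told apart.

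Most of the Z-disc, M-band and chaperone genes differed by little between knockout and control ventricles. Fhl2, which encodes a LIM-only protein that binds titin and also acts as a transcriptional coregulator, was the single gene that passed the test, and it fell to 0.785 of control. Of the 36 tested genes 0 rose and 1 fell, or 2.78% called, against a background of 2.37% of all 14149 genes tested (limma, Benjamini-Hochberg adjusted p under 0.05), 1.91% higher and 0.466% lower. The median log2 change of the 36 genes was -0.01, and that of all tested genes was also -0.01. Estimates were above 0 for 17 genes and below 0 for 19, and ran from -0.36 to 0.39. An unadjusted p under 0.05 was found for 6 of the 36 genes (16.7%, against 16.1% of all tested genes). The knockout libraries lay wholly above the control libraries for Pdlim1, Smpx and Smyd1 and wholly below for Fhl2, Myoz2 and Trim63, which is 16.7% of the 36 genes, against 21.4% of all tested genes (11% above and 10.4% below). Both shares are near the background. All changes are on the log2(FPKM + 1) scale, which understates those of low genes. For 34 of the 36 genes the 95% interval of the change lay within 1.5-fold either way, and for the remaining Actn2 and Smpx it reached 1.53-fold and 1.54-fold on the higher side.

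**Figure D1:**
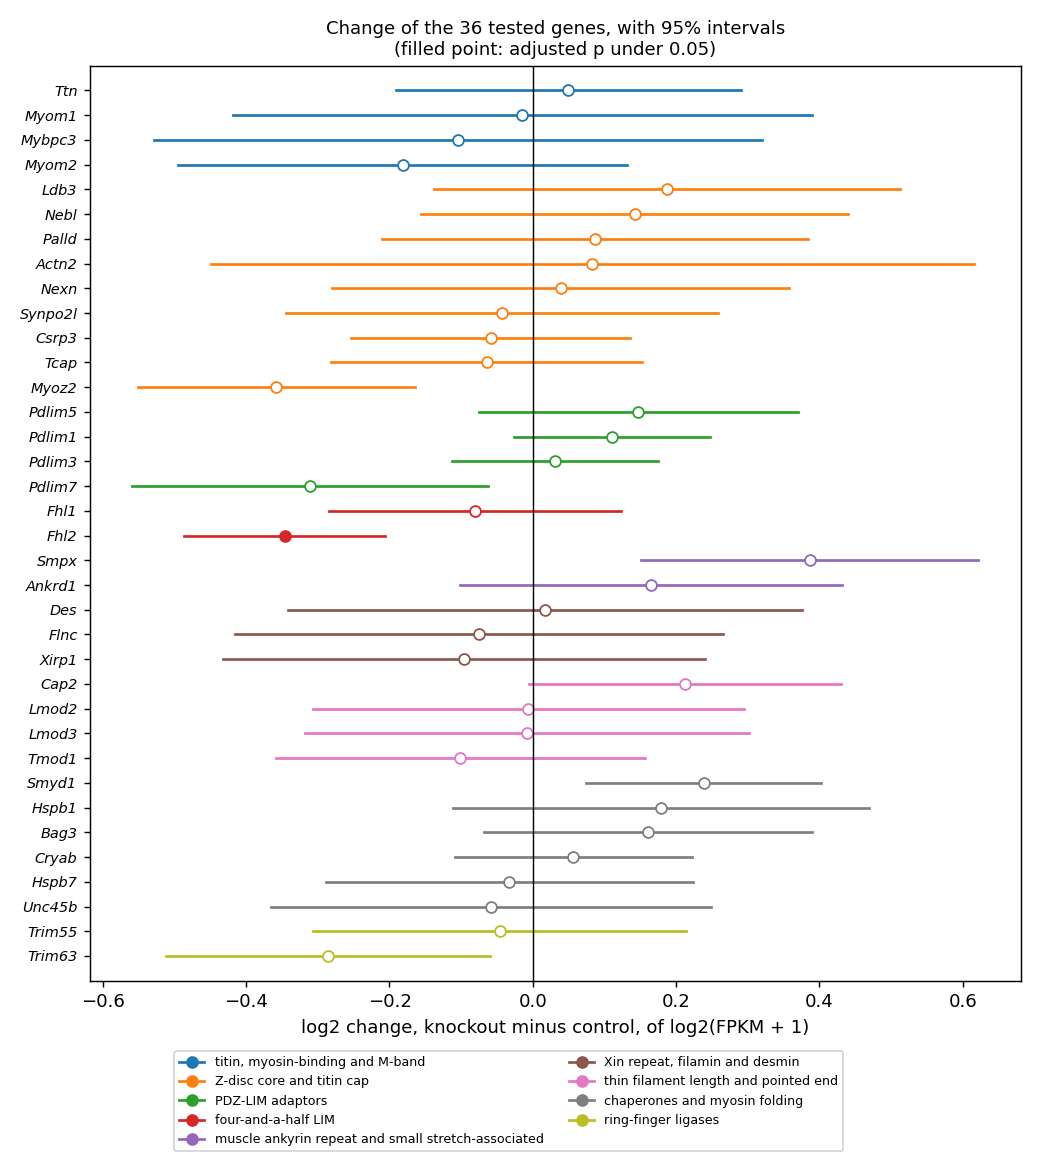
Log2 change between knockout and control of log2(FPKM + 1) for the 36 tested genes (points) with 95% intervals from limma (lines), coloured by role; n = 3 libraries per group. Fhl2 is the single filled point (adjusted p under 0.05), Smpx lies farthest to the right at 0.39 and Myoz2 farthest to the left at -0.36.

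The promoter windows of Fhl2, Myoz2, Trim63, Smyd1, Smpx and Pdlim1 are shown, since the groups did not overlap for these genes. The windows hold the 250 bases before a transcription start, from RefSeq on GRCm38.p6, written 5′ to 3′ on the gene's strand. Capitals mark matches, on either strand, to the CArG box of serum response factor, to the site of MEF2 factors, to TATAAA and to GGAATG (the M-CAT element of TEAD factors). Fhl2 has 2 entries, an upstream start (chr1:43196762-43197011, minus strand) and a downstream start (chr1:43163962-43164211, minus strand). The others are Myoz2 (chr3:123034988-123035237, minus strand), Trim63 (chr4:134314870-134315119, plus strand), Smyd1 (chr6:71262282-71262531, minus strand), Smpx (chrX:157698723-157698972, plus strand) and Pdlim1 (chr19:40271617-40271866, minus strand).
Fhl2 upstream start: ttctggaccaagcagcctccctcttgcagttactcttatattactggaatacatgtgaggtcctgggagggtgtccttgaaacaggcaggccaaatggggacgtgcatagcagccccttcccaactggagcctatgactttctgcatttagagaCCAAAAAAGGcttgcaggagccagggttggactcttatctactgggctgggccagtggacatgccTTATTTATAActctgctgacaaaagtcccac
Fhl2 downstream start: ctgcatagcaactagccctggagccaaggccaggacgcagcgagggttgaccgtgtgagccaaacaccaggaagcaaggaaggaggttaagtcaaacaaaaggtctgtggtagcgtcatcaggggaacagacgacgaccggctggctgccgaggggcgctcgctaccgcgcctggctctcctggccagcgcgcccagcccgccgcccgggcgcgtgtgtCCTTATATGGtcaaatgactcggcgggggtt
Myoz2: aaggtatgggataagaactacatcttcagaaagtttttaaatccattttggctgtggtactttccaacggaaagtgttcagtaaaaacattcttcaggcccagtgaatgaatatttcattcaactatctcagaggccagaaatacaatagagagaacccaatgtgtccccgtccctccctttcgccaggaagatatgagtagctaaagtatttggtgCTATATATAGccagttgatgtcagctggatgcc
Trim63: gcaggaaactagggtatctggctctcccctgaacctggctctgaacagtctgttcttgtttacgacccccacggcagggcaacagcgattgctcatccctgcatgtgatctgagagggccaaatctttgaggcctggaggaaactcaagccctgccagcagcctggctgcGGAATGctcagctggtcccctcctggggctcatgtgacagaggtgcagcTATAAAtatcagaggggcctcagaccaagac
Smyd1: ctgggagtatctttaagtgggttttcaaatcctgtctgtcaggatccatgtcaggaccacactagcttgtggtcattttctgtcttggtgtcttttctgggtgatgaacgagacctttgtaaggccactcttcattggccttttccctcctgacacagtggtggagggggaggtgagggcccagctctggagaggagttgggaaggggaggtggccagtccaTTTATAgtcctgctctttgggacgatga
Smpx: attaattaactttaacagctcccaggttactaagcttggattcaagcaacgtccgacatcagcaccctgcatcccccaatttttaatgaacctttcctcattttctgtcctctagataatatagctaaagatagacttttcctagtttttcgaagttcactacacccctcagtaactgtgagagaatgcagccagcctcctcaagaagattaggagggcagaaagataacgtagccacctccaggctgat
Pdlim1: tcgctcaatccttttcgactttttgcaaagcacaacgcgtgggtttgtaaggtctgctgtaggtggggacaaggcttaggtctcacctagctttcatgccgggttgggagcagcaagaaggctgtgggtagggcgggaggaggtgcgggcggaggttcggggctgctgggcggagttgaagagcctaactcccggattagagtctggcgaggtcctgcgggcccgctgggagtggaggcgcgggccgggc

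Both Fhl2 windows held a CArG box, from 96 to 87 bases before the upstream start and from 31 to 22 bases before the downstream start. The upstream window also held a MEF2 site from 31 to 22 bases before the start, and a TATAAA match on the opposite strand lies inside that site. Myoz2 had a MEF2 site at 33 to 24 bases before the start. Trim63 had TATAAA at 31 to 26 and GGAATG at 80 to 75 bases before it, and Smyd1 had TATAAA on the opposite strand at 28 to 23. None of the 4 motifs was in the Smpx or Pdlim1 window. RefSeq windows were found for 31 of the 38 genes, as 44 windows, and Myom2, Tcap, Nexn, Xirp1, Lmod3, Cryab and Trim55 had none. A CArG box was in 7 of the 44 windows (15.9%), in Fhl1, Fhl2, Ldb3, Myom1 and Nebl, against 1.47% of all 32851 windows of the same length. A MEF2 site was also in 7 windows (15.9%), in Fhl2, Mybpc3, Myoz2, Synpo2l, Ttn and Xirp2, against 2.92% of all windows. TATAAA was in 13.6% against 12.4%, and GGAATG in 20.5% against 12.6%. Windows of 1 gene can overlap and hold the same site, and these matches are descriptions of the sequence. Among the genes with a CArG box Fhl2 fell, and the estimates of Fhl1, Ldb3, Myom1 and Nebl were -0.08, 0.19, -0.01 and 0.14 on the log2 scale, none of which passed the test. The FPKM of Fhl2 is a total for the gene and does not separate its starts.

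Fhl2 belongs to the four-and-a-half LIM proteins, of which the heart also expresses the X-linked Fhl1, a binder of titin and of myosin-binding protein C. Fhl2 (chromosome 1, 43123074 to 43196984, minus strand, mm10) stood at 128, 131 and 133 FPKM in control replicates 1, 2 and 3 and at 105, 102 and 101 FPKM in knockout replicates 1, 2 and 3. Every knockout library was below every control library, and the libraries of each group lay close together. The means were 131 ± 2.80 and 103 ± 2.21 FPKM (SD, n = 3 each), which is -0.35 on the log2 scale (limma, SE 0.06, adjusted p = 0.0313). The adjusted p rose above 0.05 without control replicate 1 (0.0881), control replicate 2 (0.0938), knockout replicate 1 (0.0949), knockout replicate 2 (0.138) or knockout replicate 3 (0.133), whereas without control replicate 3 it was 0.042. Across the 6 fits that each left out 1 library the log2 change stayed between -0.36 and -0.33. With the replicate number as a block the adjusted p was 0.0643, and with a sex score from Xist and Y-linked genes as covariate it was 0.166. Fhl1 was at 79.4, 76.1 and 64.6 FPKM in control and 72.0, 67.4 and 67.8 FPKM in knockout libraries, so the groups overlapped (log2 change -0.08, limma adjusted p = 0.704). Within a library the Fhl2 to Fhl1 ratio of FPKM was 1.61 to 2.06 in control and 1.46 to 1.51 in knockout, with no overlap. The groups of Fhl2 alone were already apart, so the ratio is no separate evidence. Its value of 2.06 came from control replicate 3, where Fhl1 was lowest.

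**Figure D2:**
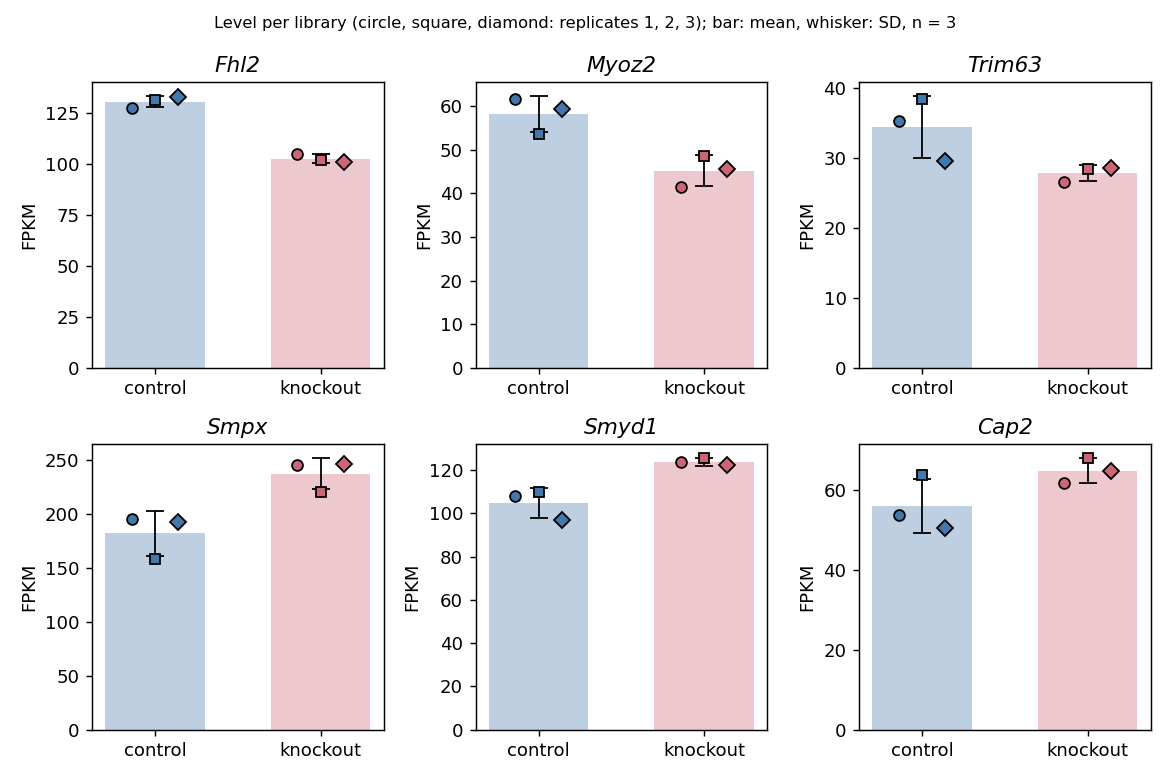
FPKM per library for the 6 genes described with full statistics; points are replicates 1 to 3, bars are means and whiskers are SDs (n = 3). The Fhl2 libraries sit between 128 and 133 in control and between 101 and 105 in knockout, while the groups of Cap2 overlap.

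The Z-disc itself is built around α-actinin. Actn2, the cardiac α-actinin gene, had 314, 345 and 178 FPKM in control and 286, 308 and 260.2 FPKM in knockout libraries. Control replicate 3 was far below the other 5 libraries and the knockout values fell inside the control range (0.08 on the log2 scale with SE 0.23, adjusted p = 0.899 by limma). Csrp3 (muscle LIM protein), with 311 to 327 FPKM in control and 289.5 to 339 FPKM in knockout, and Tcap (telethonin, the titin cap), with 93.8 to 101 and 84.2 to 106 FPKM, overlapped between the groups.

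Myoz2 (chromosome 3, 123006206 to 123035015, minus strand) encodes calsarcin-1, which tethers calcineurin to α-actinin. It stood at 61.6, 53.6 and 59.5 FPKM in control and 41.6, 48.6 and 45.6 FPKM in knockout replicates 1, 2 and 3. All 3 knockout libraries lay below the controls. The means were 58.2 ± 4.15 and 45.2 ± 3.51 FPKM (SD, n = 3 each), and knockout stood at 0.777 of control, but the change missed the threshold (-0.36 on the log2 scale with SE 0.08, adjusted p = 0.0829 by limma). It passed when whole reads were recovered and fitted with limma-voom (adjusted p = 0.0335), a fit chosen after seeing the data in which 3.61% of all genes were called. The other Z-disc genes were Nebl (nebulette), Ldb3 (the PDZ-LIM protein ZASP), Synpo2l, Nexn (nexilin) and Palld (palladin). Their log2 changes were between -0.04 and 0.19 and their groups overlapped.

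The PDZ-LIM adaptors, which bind α-actinin through the PDZ domain, did not pass the test. Pdlim7 (enigma) had 58.6, 51.2 and 44.6 FPKM in control and 40.0, 44.6 and 38.7 FPKM in knockout libraries. The highest knockout library lay just above the lowest control library (log2 change -0.31, limma adjusted p = 0.212). Pdlim1 lay at 29.2 to 31.4 FPKM in control and 32.5 to 33.5 FPKM in knockout, without overlap but with a ratio of only 1.08 (adjusted p = 0.402). Pdlim5 and Pdlim3 were at ratios of 1.11 and 1.02. The Pdlim7 to Pdlim5 ratio within a library was 1.69 to 1.77 in control and 1.19 to 1.35 in knockout, a pair picked after the values were known.

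Smpx and Ankrd1 mark another branch, small proteins and ankyrin repeat proteins whose genes respond to load. Smpx (chromosome X, 157698910 to 157752591, plus strand), a small muscle protein of the costamere region, had 195, 158 and 193 FPKM in control and 246, 221 and 246 FPKM in knockout replicates 1, 2 and 3. The knockout libraries were all above the controls. The means were 182 ± 21.02 and 238 ± 14.4 FPKM (SD, n = 3 each), and knockout stood at 1.30 of control, and the change missed the threshold (0.39 on the log2 scale with SE 0.10, adjusted p = 0.114 by limma). It passed after rescaling to TPM (adjusted p = 0.0286), by quantiles (0.0227), without haemoglobin and mitochondrial genes (0.0413) and by limma-voom on reads (0.0421). The gene is X-linked and knockout replicate 3 differs from the rest in sex-linked RNA; without that library the log2 change was 0.36 (adjusted p = 0.309) and with the sex score as covariate 0.35 (adjusted p = 0.384). Ankrd1, the cardiac ankyrin repeat protein gene, was at 397, 400.5 and 365 FPKM in control and 454, 489 and 369 FPKM in knockout, and knockout replicate 3 lay inside the control range (adjusted p = 0.528). Ankrd23 was below the filter, at 8 to 17 reads per library, and exons of Gm42417 cover 78.2% of it.

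The M-band and thick filament genes showed no change that passed. Mybpc3, cardiac myosin-binding protein C, was at 455, 542 and 317 FPKM in control and 385, 433 and 377 FPKM in knockout libraries. The controls spanned a wider range than the knockouts and enclosed them (-0.10 on the log2 scale with SE 0.18, adjusted p = 0.831 by limma). Myom1, the main myomesin, had 22.7 to 37.98 FPKM in control and 29.1 to 33.3 FPKM in knockout, and Myom2, the myomesin of mature muscle, 0.618 to 0.914 and 0.463 to 0.854 FPKM. Ttn, the titin gene, was listed at only 0.825 to 1.15 FPKM, from 1715 to 2405 reads over 116825 exon bases, although titin is a major sarcomere protein. Exons of other annotated genes cover 0.388% of its exons. The ratio of knockout to control was 1.08, and the reason for the low listed level was not tested.

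Filamin C, desmin and the Xin proteins link the Z-disc to the membrane and to neighbouring myofibrils. Des (desmin) was at 218, 232 and 152 FPKM in control and 203, 211 and 185 FPKM in knockout. Its group means differed by less than the spread of the controls, with a ratio of 0.997. Flnc and Xirp1 were at ratios of 0.936 and 0.922, with overlapping groups. Xirp2 had 1 to 15 reads per library and was not tested, whereas its paralog Xirp1 had 17.5 to 26.9 FPKM.

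Thin filament length is set by leiomodins, which elongate the pointed end, and by tropomodulin, which caps it. Lmod2 and Lmod3 were at ratios of 0.989 and 0.990, and Tmod1 (32.6% of its exons lie under Tstd2) at 0.924. Cap2 (chromosome 13, 46501848 to 46650281, plus strand), a cyclase-associated protein of actin turnover, had 53.7, 63.5 and 50.5 FPKM in control and 61.6, 67.9 and 64.6 FPKM in knockout replicates 1, 2 and 3. Control replicate 2 lay inside the knockout range. The means were 55.9 ± 6.80 and 64.7 ± 3.15 FPKM (SD, n = 3 each), which is 0.21 on the log2 scale with SE 0.09 (limma adjusted p = 0.321).

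The 6 chaperone and myosin folding genes had a summed level of 1230 to 1518 FPKM per library, and none passed. Hspb1, a small heat shock protein gene, had 513, 479 and 382 FPKM in control and 545, 532 and 470.2 FPKM in knockout libraries, with a ratio of 1.13 and overlapping groups. Its relatives Hspb7, at 373 to 478 FPKM in control and 417 to 449 in knockout, and Cryab (αB-crystallin, with 17% of its exons under Hspb2), at 322 to 348 and 338 to 353 FPKM, differed by less than their spread. Bag3, the co-chaperone that guides damaged filamin to autophagy, was at a ratio of 1.12.

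Smyd1 and Unc45b both assist myosin folding. Smyd1 (chromosome 6, 71213940 to 71322233, minus strand), a muscle lysine methyltransferase, had 108, 109.6 and 96.9 FPKM in control and 124, 126 and 122 FPKM in knockout replicates 1, 2 and 3. The knockout libraries were close together and all above the controls. The means were 105 ± 6.91 and 124 ± 1.73 FPKM (SD, n = 3 each), and knockout stood at 1.18 of control, and the change missed the threshold (0.24 on the log2 scale with SE 0.07, adjusted p = 0.153 by limma). Unc45b, the myosin chaperone, had 37.0 to 53.7 FPKM in control and 39.7 to 46.6 FPKM in knockout, a ratio of 0.951.

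Trim63 and Trim55 encode MuRF1 and MuRF2, ubiquitin ligases of the M-band region that mark sarcomere proteins for removal. Trim63 (chromosome 4, 134315120 to 134329629, plus strand) was at 35.2, 38.4 and 29.6 FPKM in control and 26.6, 28.4 and 28.6 FPKM in knockout replicates 1, 2 and 3. The groups did not overlap, but control replicate 3 lay near the knockouts. The means were 34.4 ± 4.47 and 27.9 ± 1.12 FPKM (SD, n = 3 each), and knockout stood at 0.811 of control (-0.29 on the log2 scale with SE 0.10, adjusted p = 0.208 by limma). Without control replicate 3 the change passed (log2 change -0.39, adjusted p = 0.041), making 2 genes lower with Fhl2, in a fit where 0.798% of all genes were called lower. Trim55 had 113, 109.4 and 86.1 FPKM in control and 104, 101 and 92.0 FPKM in knockout (adjusted p = 0.882).

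Control replicate 3 had the lowest summed level of these genes. It was the lowest of the 3 controls for 29 of the 36 genes (80.6%, against 38.5% of all tested genes) and the lowest of all 6 libraries for 26 (72.2%, against 19.3%). The sum over the 38 genes was 3754 FPKM in it, against 4598 and 4692 in the other controls and 4209 to 4613 in the knockouts. The 7 genes for which it was not the lowest control were Ttn, Myom2, Tcap, Myoz2, Pdlim3, Fhl2 and Smpx. Fhl2 and Ttn were highest there among the controls. The median coefficient of variation of the 36 genes was 13.97% in control and 7.65% in knockout, against 9.997% and 7.99% over all tested genes.

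**Figure D3:**
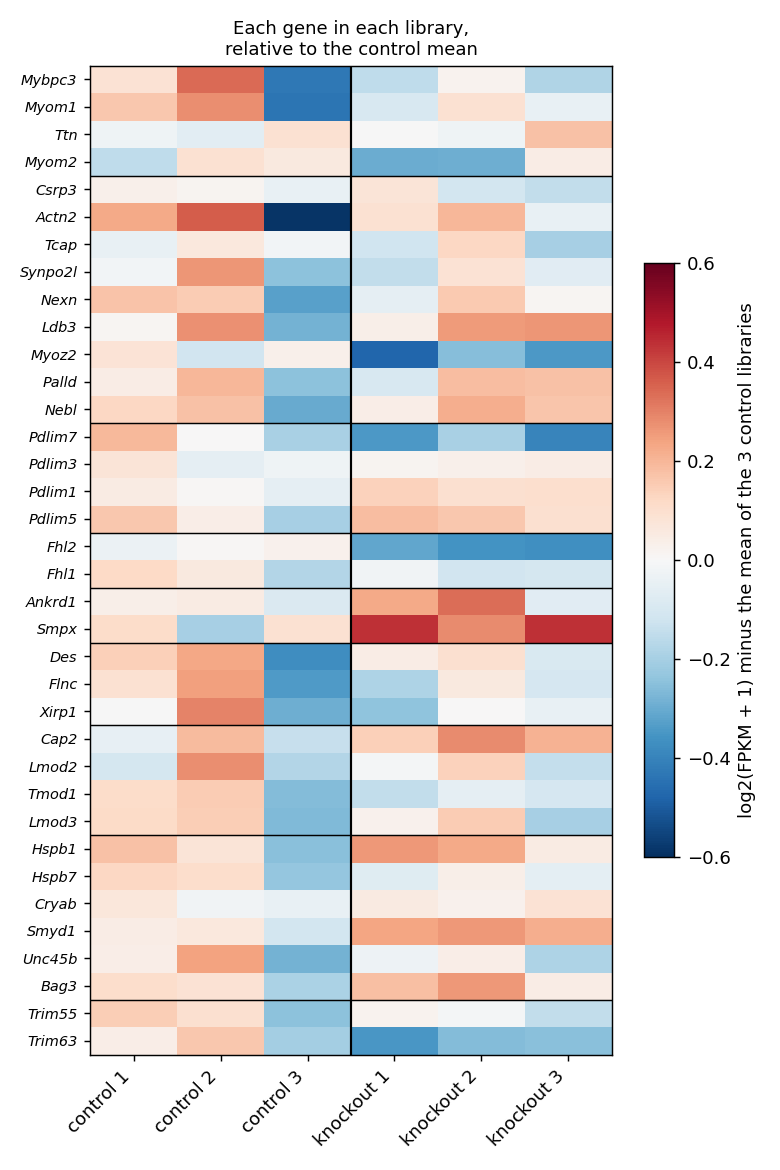
Log2(FPKM + 1) of each tested gene in each library minus its mean over the 3 controls, with genes in rows grouped by role (horizontal lines) and libraries in columns. The column of control 3 is blue for most genes, lowest for Actn2, while Fhl2, Myoz2, Pdlim7 and Trim63 are blue in the 3 knockout columns and Smpx and Smyd1 are red there.

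Other transcripts moved with that library. The 11 cushion and fibroblast markers were all highest among the controls in control replicate 3, with a sum of 537 FPKM, against 338 and 341 in the other controls and 324 to 417 in the knockouts. Endothelial markers were highest there among the controls for 11 of 12, with a sum of 298 FPKM against 216 and 221 in the other controls and 256 to 316 in the knockouts. Erythroid markers were highest there among the controls for 10 of 11, with a sum of 18025 FPKM against 8053 and 10676 in the other controls. In the knockouts their sums were 15130, 7921 and 16539 FPKM in replicates 1, 2 and 3, so high erythroid levels were not particular to control replicate 3. Mitochondrially encoded transcripts made up 9.03% of the FPKM of control replicate 3, against 4.64% to 7.10% in the other 5 libraries. The 11 cardiomyocyte markers were lowest there among the controls for 8, among them Myh6 and Actc1. The part of these differences in the levels of the sarcomere genes was not tested. Without control replicate 3 the median log2 change of the 36 genes was -0.13 (12 above 0 and 24 below), against -0.02 for all tested genes, and that of the cardiomyocyte markers was -0.17. In the same fit the medians of the endothelial, erythroid and immune markers were 0.36, 0.43 and 0.20, and those of the epicardial and cushion markers were 0.10 and 0.08. In that fit all 11 cardiomyocyte markers were below 0 and all 8 tested immune markers were above 0. Directions were mixed within the other lists, with 1 endothelial, 2 erythroid, 1 epicardial and 4 cushion markers below 0. With all libraries 1 endothelial marker was called lower. Mybpc3 then had a log2 change of -0.32 (adjusted p = 0.163) and Actn2 of -0.21 (adjusted p = 0.261), where with all libraries they were at -0.10 and 0.08.

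Levels spanned a wide range. There were 12 genes with a mean above 100 FPKM, 22 between 10 and 100 and 4 under 1 (Ttn, Myom2, Ankrd23 and Xirp2), and 23 of the 36 tested genes lay above the 90th percentile of all tested genes. Hspb1, Hspb7, Mybpc3 and Ankrd1 led, with means over the 6 libraries of 487, 435, 418 and 412 FPKM, and their library values overlapped, so their order is not fixed. Cryab and Csrp3 followed at 339 and 315 FPKM, then Actn2, Smpx and Des at 282, 209.8 and 200.1 FPKM.

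**Figure D4:**
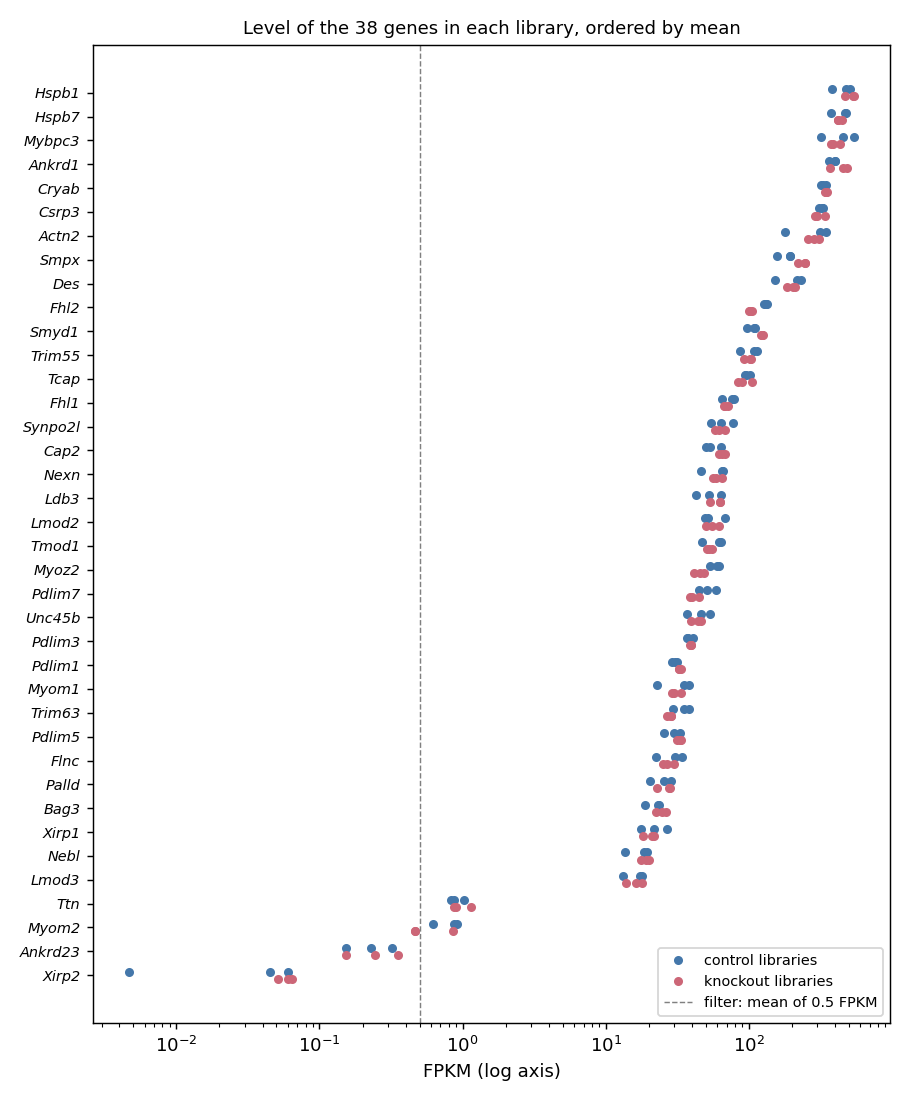
FPKM of the 38 genes in each of the 3 control (blue) and 3 knockout (red) libraries on a log axis, ordered by the mean of 6 libraries. All but 4 genes lie above 10 FPKM, and Ankrd23 and Xirp2 lie left of the filter at a mean of 0.5 FPKM.

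Other genes of the same structures were read from 2 further lists. Of 47 other sarcomere and Z-disc genes 40 were tested, 2 rose and 0 fell (5% called, against 2.37% of all tested genes), with a median log2 change of -0.01. An unadjusted p under 0.05 was found for 27.5% of the 40, against 16.1% of all tested genes, and groups did not overlap for 25%, against 21.4%. Mybphl, a relative of the myosin-binding proteins, (chromosome 3, 108364911 to 108380057, plus strand) rose from 12.8, 11.98 and 9.14 FPKM to 20.2, 20.0 and 20.4 FPKM, a ratio of 1.79 (0.80 on the log2 scale with SE 0.11, adjusted p = 0.0134 by limma). Pdlim4, a further PDZ-LIM gene, rose from 1.88, 1.93 and 2.17 FPKM to 3.54, 3.24 and 3.54 FPKM, a ratio of 1.73 (0.57 on the log2 scale with SE 0.08, adjusted p = 0.0124 by limma). Both had every knockout library above every control library, and with 1 library left out at a time each passed 3 times out of 6, the highest adjusted p being 0.0608 and 0.0615. Cavin4 and Ky, muscle genes of the caveola and the Z-disc, were at ratios of 0.440 and 0.438 from levels under 1.3 FPKM and did not pass (adjusted p = 0.107 and 0.122).

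Of 33 other chaperone and turnover genes 32 were tested, 0 rose and 1 fell (3.13% called, near the 2.37% of all tested genes), with a median log2 change of -0.05. Hspb6, the small heat shock protein HSP20 gene (chromosome 7, 30552178 to 30555443, plus strand), fell from 15.6, 17.0 and 15.9 FPKM to 9.99, 9.44 and 10.2 FPKM. The groups were far apart, with a ratio of 0.611 (-0.66 on the log2 scale with SE 0.07, adjusted p = 0.00412 by limma), and it passed whichever of the 6 libraries was left out. Its relatives among the 38 genes, Hspb1, Hspb7 and Cryab, were at ratios of 1.13, 0.972 and 1.04; the differences in change between these genes were not tested. Trim54, which encodes MuRF3, was at a ratio of 1.56 (adjusted p = 0.161; 26.6% of its exons lie under Gm15469) and Hspb3 at 1.25 (adjusted p = 0.217).

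**Figure D5:**
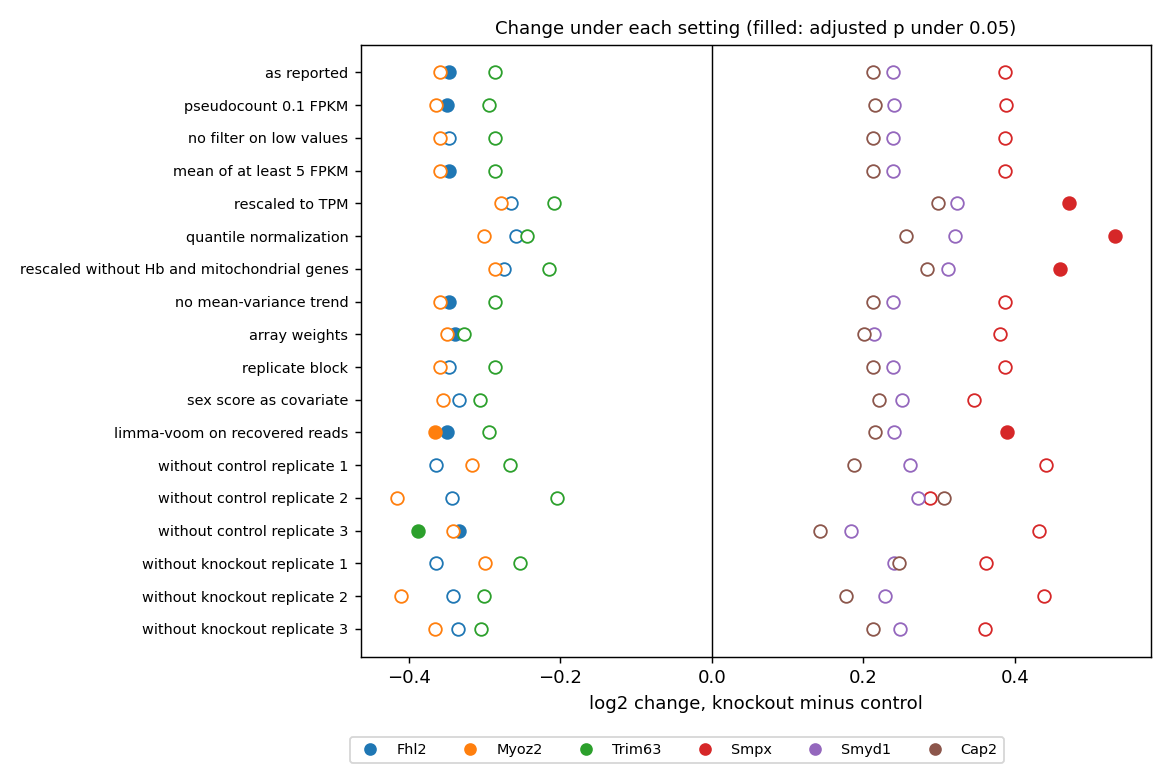
Log2 change of 6 genes (colours) under each way of processing (rows), filled where the adjusted p was under 0.05. No gene crosses 0; Fhl2 is filled in 7 of 18 rows and Smpx in 4.

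Fhl2, Myoz2, Trim63, Smpx, Smyd1 and Cap2 each kept their sign under all 17 alternatives. Of the 36 tested genes, 17 kept their sign in every alternative that tested them and 19 changed it in at least 1, among them Actn2, Mybpc3, Csrp3 and Des, so no direction is given for these.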

How the data were processed

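RNA from heart ventricles at E12.5 was sequenced in 3 control and 3 LSD1 knockout libraries. The authors deposited 1 table of FPKM for 54532 gene IDs. Per the submitters' processing notes, reads were handled with fastp and CASAVA, HISAT2 2.0.5 and featureCounts 1.5.0-p3 on mm10. The sources used here do not give the counting options or annotation release. Symbols and coordinates came from GENCODE M21, in which 54495 IDs matched and 37 did not. FPKM removes gene length but depends on the total of each library, so a few abundant transcripts can shift all other values.

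The 14149 genes averaging 0.5 FPKM or more entered a limma fit (version 3.58.1, R 4.3.3) of log2(FPKM + 1) (trend, genotype as the only term, two-sided, Benjamini-Hochberg over all tested genes, threshold 0.05). The fit was tested on simulated data. Tables and figures were made with matplotlib 3.10.9, numpy 2.4.6 and pandas 2.3.3 under Python 3.11.15. Low values fell on whole multiples of 1 read within 0.02 reads for 98.1% to 98.5% of values under 30 reads, which gave reads per library. 1 read in 1 kb was worth 0.0515 to 0.0562 FPKM. A limma-voom fit on those reads was added after seeing the data. It called 511 of 14143 genes.

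Members and lists were chosen with earlier results of these data known. Full statistics were given to members called in any planned fit and to the 3 with the smallest p in each direction, and library values also to the highest member of each role. Genes of the other lists were named if called, or else as the 2 with the smallest p in each direction. Promoters came from a RefSeq table (GRCm38.p6).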

Additional observations from a re-analysis of the deposited data

How the results depend on the processing

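Counts moved with the processing. Of the Z-disc, M-band and chaperone genes, 0 were higher in the reported fit and 1 was (Smpx) after rescaling to TPM, by quantiles, without haemoglobin and mitochondrially encoded genes, or with limma-voom on recovered reads, and 0 to 0 when 1 library was left out. The 1 lower gene (Fhl2) became 0 without a filter, under the same 3 rescalings (TPM, quantiles, no haemoglobin or mitochondrial genes), with the replicate block and with the sex score, 2 with limma-voom, and 0 to 2 when 1 library was left out. Over all tested genes the 270 higher calls became 110 without a filter, 132 at a mean of at least 5 FPKM, 93 with the sex score, 409 with limma-voom and 109 to 281 when 1 library was left out. The 66 lower calls became 12 without a filter, 40 with TPM, 112 with array weights, 23 with the sex score, 102 with limma-voom and 23 to 113 when 1 library was left out. The cause was not tested. The median log2 change of the members lay between -0.13 and 0.08 over all 17 alternatives, within 1 SD (0.131) of the library medians around the reported value. Those medians were 0.08, 0.10 and -0.20 in control replicates 1, 2 and 3, so replicate 3 itself widens the SD and the limit is a weak check. The -0.13 came without that library, with 12 members above 0 and 24 below, against 17 and 19 as reported. Fhl2, Myoz2, Trim63, Smpx, Smyd1 and Cap2 kept their sign, while 19 of the 36 tested members changed sign in at least 1 alternative. TPM moved the median of all genes from -0.01 to 0.06.

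Replicate numbers are shared by label, and whether they mark pairs is not stated. Same-numbered libraries correlated at -0.002, 0.140 and 0.164 in their deviations from the group means, and differently numbered ones at -0.189 to 0.0798. A pairing is therefore not settled by these values. With the replicate block 220 genes were higher and 64 lower. Depth limits Xirp2 and Ankrd23, where 3 reads in 1 kb equal 0.155 to 0.169 FPKM.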
